A study of Mus musculus with 8 samples.

Results

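The genes described here encode 39 proteins and enzymes of the extracellular matrix of the mouse heart other than collagens, out of 18656 genes in the tables. They were taken as a list of gene names and fall into 7 glycoproteins, 7 proteoglycans, 13 genes of elastic fibers and microfibrils, 5 crosslinking and collagen-folding genes, 3 matrix metalloproteinases and 4 tissue inhibitors of metalloproteinases. All 39 had reads, and all were among the 15076 genes kept after removing genes with low counts. The question here was how their cardiac expression differed between the genotypes, and which kinds of matrix gene moved.

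Heart RNA was sequenced from C57BL/6 mice at 16 days of age, in 2 libraries for each of 4 genotypes, and each library was made from a pool of 2 to 3 hearts. αKOγKO mice lacked both copies of ERRα in every tissue (ERRα-/-) and carried floxed ERRγ alleles that were removed by Myh6-Cre, a recombinase driven by a promoter of cardiomyocytes. αKOγWT mice lacked ERRα with ERRγ intact. αHetγKO mice had 1 copy of ERRα and lacked cardiac ERRγ. αHetγWT mice, the controls, also had only 1 copy of ERRα, with ERRγ intact, so no heart with both ERRα copies was compared. ERRα and ERRγ are orphan nuclear receptors that drive genes of mitochondrial energy metabolism. Whether γWT hearts carried Myh6-Cre was not given, so Cre and the loss of ERRγ cannot be told apart. αKOγKO mice develop a fatal cardiomyopathy in early life, and the sampled hearts came from mice still alive at this age.

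Libraries held about 28179000 to 36806000 counted reads. Esrra, which encodes ERRα, was at 1.42 and 1.64 RPKM in αKOγKO and 1.68 and 1.21 RPKM in αKOγWT hearts, against 46.7 and 45.8 RPKM in αHetγKO and 44.9 and 45.8 RPKM in αHetγWT hearts (RPKM, counted reads scaled for gene length and for the total of the library). Esrrg, which encodes ERRγ, was at 15.2 and 17.6 RPKM in αKOγKO, 8.23 and 7.23 RPKM in αKOγWT, 7.75 and 8.23 RPKM in αHetγKO and 6.83 and 6.44 RPKM in αHetγWT hearts, so counts over the whole gene did not check the γKO labels. All 8 cardiomyocyte markers had reads in every library, with a sum of 27867 to 32521 RPKM in αKOγKO and 35979 to 36340 RPKM in αHetγWT hearts. The 2 αKOγKO libraries stood apart from each other. Xist, an RNA made from the inactive X chromosome, was at 10.8 RPKM in αKOγKO replicate 1 and at most 0.0249 RPKM in each other library, and the immediate-early gene Fos was at 203 RPKM in αKOγKO replicate 2 and at most 6.24 RPKM elsewhere. Results that rest on these libraries are therefore also given without each of them. A fit without 1 of them has no spread within αKOγKO, so it serves to compare effect sizes, and its calls are no check. The study describes the hearts as those of littermates, but the sources do not tie a replicate number to a litter, so p-values measure the spread between these pools.

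The cardiac matrix surrounds myocytes and vessels with collagen fibers, elastic fibers and a ground substance of proteoglycans, most of it made by fibroblasts and vascular cells. Lysyl oxidases crosslink collagen and elastin, small leucine-rich proteoglycans bind collagen and set the spacing of its fibrils, and microfibrils of fibrillin hold TGF-β in latent complexes through latent TGF-β binding proteins. Matrix metalloproteinases cut these proteins and the tissue inhibitors, or TIMPs, hold the metalloproteinases in check. Matricellular glycoproteins such as periostin and tenascin C are low in the healthy adult heart and are known for their expression in injury and remodeling.

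In αKOγKO hearts, 29 of the 39 matrix genes were higher and 2 were lower than in αHetγWT hearts, and 8 did not pass the test (edgeR quasi-likelihood test, Benjamini-Hochberg adjusted p under 0.05). Among all tested genes 20.7% were higher and 21.5% were lower. The median log2 fold change of the 39 genes was 1.21, against 0.01 for all tested genes. Rises were largest for the glycoproteins Cilp and Cthrc1, the latent TGF-β binding protein Ltbp2, the crosslinking enzyme Lox and the elastin gene Eln. The genes that fell were the protease inhibitor Timp4 and the latent TGF-β binding protein Ltbp1. Per role, 6 of 7 glycoproteins, 4 of 7 proteoglycans, 11 of 13 elastic fiber genes, 4 of 5 crosslinking and folding genes, 2 of 3 metalloproteinases and 2 of 4 TIMPs rose. Without αHetγWT replicate 1 or 2 the median of the 39 genes was 1.11 and 1.29. Of the 31 calls, Aspn, Fn1 and Sparc did not pass in either fit, nor did Fbln1 without replicate 1. Fewer of all tested genes passed in these fits too.

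Both αKOγKO libraries lay above all 6 other libraries in RPKM for 32 of the 39 genes and below them for 2, with overlap for Spp1, Dcn, Lum, Ogn and Timp3. Among all tested genes, 34.8% lay above and 18.3% below in this way. RPKM was not rescaled between libraries, and the scaling factors of the count test were above 1 only in αKOγKO libraries, so the shares above and below are not read against each other. The summed RPKM of the 39 genes was 9003 and 5027 in αKOγKO, 3465 and 3310 in αKOγWT, 3246 and 3572 in αHetγKO and 2937 and 3079 in αHetγWT hearts. In whole heart RNA, more RNA of these genes per cell and more of the cells that make them cannot be told apart.

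**Figure D1:**
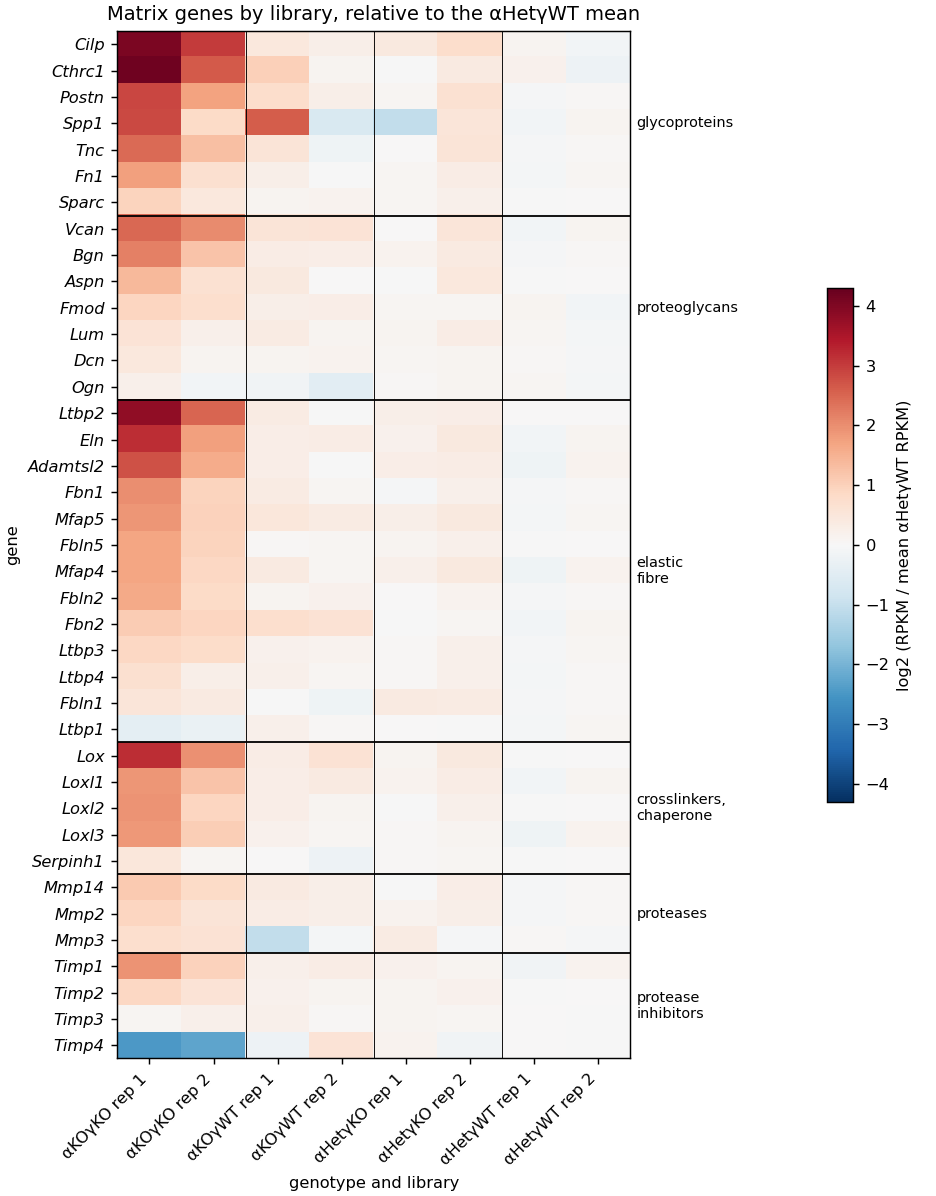
RPKM of the 39 matrix genes in each of the 8 libraries, as log2 of the ratio to the mean of the 2 αHetγWT libraries (color), with genes in rows grouped by role and libraries in columns. Red fills the 2 αKOγKO columns for most genes and is darker in replicate 1, while Timp4, at 5.53 and 6.25 RPKM in αKOγKO against 30.7 and 29.9 RPKM in αHetγWT hearts, is the only dark blue row.

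The glycoproteins gave the largest changes. Cilp, which encodes cartilage intermediate layer protein, a matrix protein that binds TGF-β, was at 48.3 and 23.3 RPKM in αKOγKO, 3.98 and 3.45 RPKM in αKOγWT, 3.91 and 4.97 RPKM in αHetγKO and 3.17 and 2.68 RPKM in αHetγWT hearts. Both αKOγKO libraries were far above the other 6, and the log2 fold change over αHetγWT was 3.50 ± 0.32 (SE, edgeR adjusted p = 6.18e-05), or 2.86 without αKOγKO replicate 1. Cthrc1, a secreted glycoprotein with a collagen triple helix repeat, was at 27.4 and 9.44 RPKM in αKOγKO, 3.12 and 1.65 RPKM in αKOγWT, 1.49 and 1.97 RPKM in αHetγKO and 1.74 and 1.30 RPKM in αHetγWT hearts. Its log2 fold change was 3.49 ± 0.53 (SE, edgeR adjusted p = 0.000926), which became 2.50 when αKOγKO replicate 1 was left out and 2.78 under limma on log2(RPKM + 1), and the αKOγKO libraries did not overlap the rest. Postn, which encodes periostin, was at 467 and 210 RPKM in αKOγKO, 107 and 75.8 RPKM in αKOγWT, 66.7 and 98.4 RPKM in αHetγKO and 61.2 and 65.2 RPKM in αHetγWT hearts. It rose by 2.30 ± 0.35 on the log2 scale (SE, edgeR adjusted p = 0.00104), or by 1.59 without αKOγKO replicate 1. Tnc, which encodes tenascin C, was far lower in level, at 7.60 and 3.41 RPKM in αKOγKO, 2.04 and 1.24 RPKM in αKOγWT, 1.41 and 2.05 RPKM in αHetγKO and 1.36 and 1.45 RPKM in αHetγWT hearts, and rose by 1.85 ± 0.38 (SE, edgeR adjusted p = 0.00437), or by 1.14 without αKOγKO replicate 1.

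The fold changes of fibronectin and SPARC were smaller than those of the 4 genes above, and osteopontin did not pass. Fn1, which encodes fibronectin, rose by 1.21 ± 0.30 on the log2 scale (SE, edgeR adjusted p = 0.0113), with 113 and 52.6 RPKM in αKOγKO against 31.0 and 35.0 RPKM in αHetγWT hearts, and by 0.53 without αKOγKO replicate 1. Without αHetγWT replicate 1 or 2 its value was 1.11 and 1.31 and did not pass (adjusted p = 0.0855 and 0.0527). Sparc, a collagen-binding matricellular protein that was among the highest of the 39 genes in RPKM, rose by 0.60 ± 0.15 (SE, edgeR adjusted p = 0.0112), with 1614 and 1133 RPKM in αKOγKO against 819 and 843 RPKM in αHetγWT hearts. Without αHetγWT replicate 1 or 2 its value was 0.57 and 0.63 and did not pass (adjusted p = 0.0784 and 0.0567). Spp1, which encodes osteopontin, rested on few reads, with 137 and 34 reads in αKOγKO, 99 and 10 in αKOγWT, 7 and 25 in αHetγKO and 14 and 17 in αHetγWT hearts. These values overlapped between genotypes, and its log2 fold change of 2.04 ± 1.01 (SE) did not pass (edgeR adjusted p = 0.139). DESeq2 called it (adjusted p = 0.0347), as did edgeR when αKOγKO replicate 2 was left out (2.73, adjusted p = 0.0357). The value was 0.69 when αKOγKO replicate 1 was left out.

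Cilp is shown with its promoter because it had the largest rise of the 39 genes. The window holds the 250 bases before the start of the gene on chr9:65264930-65265179 of GRCm38 (plus strand, RefSeq), and none of the 7 motifs searched is in it. Motifs were searched as exact letters, so variants of them, such as TATATAAG in this window for the TATA box TATAAA, were not counted.
Cilp: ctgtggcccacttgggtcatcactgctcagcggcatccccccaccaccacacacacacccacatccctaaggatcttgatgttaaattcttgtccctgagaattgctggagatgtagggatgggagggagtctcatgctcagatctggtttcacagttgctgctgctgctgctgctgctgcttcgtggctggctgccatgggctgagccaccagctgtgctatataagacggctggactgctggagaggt

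Of the 7 proteoglycans 4 rose and 3 did not pass. Vcan, which encodes versican, a large proteoglycan of the provisional matrix, was at 10.6 and 7.78 RPKM in αKOγKO, 2.84 and 2.91 RPKM in αKOγWT, 1.92 and 2.76 RPKM in αHetγKO and 1.77 and 2.07 RPKM in αHetγWT hearts. It rose by 2.13 ± 0.20 on the log2 scale (SE, edgeR adjusted p = 6.14e-05). Bgn, which encodes the small leucine-rich proteoglycan biglycan, was at 568 and 294 RPKM in αKOγKO, 159 and 153 RPKM in αKOγWT, 140 and 163 RPKM in αHetγKO and 122 and 131 RPKM in αHetγWT hearts, a rise of 1.65 ± 0.26 (SE, edgeR adjusted p = 0.00107). For both genes the αKOγKO libraries stood clear of all others. Aspn, which encodes asporin, was at 86.1 and 51.4 RPKM in αKOγKO, 43.9 and 32.8 RPKM in αKOγWT, 32.5 and 44.3 RPKM in αHetγKO and 32.1 and 33.4 RPKM in αHetγWT hearts. It rose by 0.95 ± 0.24 (SE, edgeR adjusted p = 0.0132), and without αHetγWT replicate 1 or 2 the value was 0.91 and 0.99 and no longer passed (adjusted p = 0.0849 and 0.0665). Fmod, which encodes the collagen-binding fibromodulin, was at 9.36 and 8.19 RPKM in αKOγKO, 5.91 and 6.14 RPKM in αKOγWT, 5.28 and 5.22 RPKM in αHetγKO and 5.37 and 4.60 RPKM in αHetγWT hearts, a rise of 0.69 ± 0.12 (SE, edgeR adjusted p = 0.00162).

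Decorin, lumican and osteoglycin, which bind collagen fibrils as biglycan does, did not pass. Dcn, which encodes decorin, was at 505 and 408 RPKM in αKOγKO against 382 and 364 RPKM in αHetγWT hearts, with a value of 0.17 ± 0.10 on the log2 scale (SE, edgeR adjusted p = 0.22) that was -0.01 when αKOγKO replicate 1 was left out and 0.33 when αKOγKO replicate 2 was (adjusted p = 0.00323). It also passed with limma on log2(RPKM + 1), at 0.29 (adjusted p = 0.0452). Lum, which encodes lumican, was at 0.29 ± 0.14 on the log2 scale (SE, edgeR adjusted p = 0.126), which passed without αKOγKO replicate 2 at 0.48 (adjusted p = 0.00619). Ogn, which encodes osteoglycin, was at -0.05 ± 0.13 on the log2 scale (SE, edgeR adjusted p = 0.76), which was 0.06 with limma on log2(RPKM + 1). Dcn and Lum lie on chromosome 10 and Ogn and Aspn on chromosome 13, where both overlap the gene Cenpp on the other strand, which had at most 160 reads in a library.

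Of the 13 elastic fiber and microfibril genes, 11 rose, and Ltbp1 fell. Eln, which encodes elastin, was at 3087 and 1157 RPKM in αKOγKO, 409 and 423 RPKM in αKOγWT, 389 and 456 RPKM in αHetγKO and 309 and 369 RPKM in αHetγWT hearts. It rose by 2.53 ± 0.38 on the log2 scale (SE, edgeR adjusted p = 0.000912), or by 1.63 without αKOγKO replicate 1. Eln made up 34.3% and 23.0% of the summed RPKM of the 39 genes in αKOγKO hearts and 10.5% to 12.8% in the other 6 libraries. Ltbp2, a latent TGF-β binding protein that binds microfibrils rather than TGF-β itself, was at 20.1 and 8.10 RPKM in αKOγKO, 1.82 and 1.41 RPKM in αKOγWT, 1.71 and 1.75 RPKM in αHetγKO and 1.43 and 1.43 RPKM in αHetγWT hearts. Its log2 fold change was 3.18 ± 0.38 (SE, edgeR adjusted p = 0.000252), which became 2.36 when αKOγKO replicate 1 was left out and 2.51 under limma on log2(RPKM + 1). Adamtsl2, a secreted protein without protease activity that binds fibrillin microfibrils, was at 142 and 65.0 RPKM in αKOγKO, 25.9 and 21.0 RPKM in αKOγWT, 26.0 and 26.9 RPKM in αHetγKO and 19.0 and 23.8 RPKM in αHetγWT hearts, a rise of 2.16 ± 0.32 (SE, edgeR adjusted p = 0.000822), or of 1.46 without αKOγKO replicate 1. Fbn1, which encodes fibrillin 1, the main microfibril protein, was at 69.2 and 33.8 RPKM in αKOγKO, 22.1 and 18.6 RPKM in αKOγWT, 16.9 and 20.2 RPKM in αHetγKO and 16.8 and 18.2 RPKM in αHetγWT hearts, a rise of 1.44 ± 0.28 (SE, edgeR adjusted p = 0.00362), or of 0.81 without αKOγKO replicate 1. For these genes no αKOγKO library overlapped another genotype.

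The other elastic fiber genes that rose did so by 0.33 to 1.40 on the log2 scale. They were Mfap5, Fbln5, Mfap4, Fbln2, Fbn2, Ltbp3 and Fbln1, which encode microfibril-associated proteins, the fibulins that assemble elastin, a fibrillin of early life and a latent TGF-β binding protein. Mfap4 and Mfap5, which encode microfibril-associated proteins, were at 332 and 189 RPKM and at 196 and 104 RPKM in αKOγKO hearts, against 91.1 and 115 RPKM and 49.7 and 55.1 RPKM in αHetγWT hearts. The value of Ltbp3, 0.72 ± 0.09 (SE), is uncertain to the extent that reads were counted without strand. Ltbp4, which binds TGF-β and is needed for elastic fibers, had 270 and 198 RPKM in αKOγKO against 160 and 176 RPKM in αHetγWT hearts and a log2 fold change of 0.36 ± 0.14 (SE), which did not pass (edgeR adjusted p = 0.0786). DESeq2 called it (adjusted p = 0.0211), limma on log2(RPKM + 1) called it (adjusted p = 0.0324), and so did edgeR when αKOγKO replicate 2 was left out (0.58, adjusted p = 0.000692).

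The 4 latent TGF-β binding proteins thus differed in direction. Ltbp1 was at 10.2 and 11.2 RPKM in αKOγKO, 16.2 and 14.3 RPKM in αKOγWT, 14.1 and 13.6 RPKM in αHetγKO and 13.0 and 14.7 RPKM in αHetγWT hearts. Both αKOγKO libraries were below the other 6, and Ltbp1 fell by 0.49 on the log2 scale (SE 0.09, edgeR adjusted p = 0.00265). Ltbp2 made up 6.02% and 3.26% of the summed RPKM of the 4 genes in αKOγKO hearts and 0.663% to 0.812% in the other libraries, so Ltbp4 and Ltbp3 still gave most of it.

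All 4 lysyl oxidases among the 39 genes rose. Lox, which encodes lysyl oxidase, was at 36.2 and 15.9 RPKM in αKOγKO, 5.07 and 6.23 RPKM in αKOγWT, 4.35 and 5.33 RPKM in αHetγKO and 4.02 and 4.04 RPKM in αHetγWT hearts. It rose by 2.58 ± 0.34 on the log2 scale (SE, edgeR adjusted p = 0.000465), or by 1.84 without αKOγKO replicate 1. Loxl1, the lysyl oxidase of elastic fibers, was the most abundant, at 95.9 and 59.7 RPKM in αKOγKO, 31.3 and 33.9 RPKM in αKOγWT, 28.7 and 31.9 RPKM in αHetγKO and 24 and 27.7 RPKM in αHetγWT hearts, a rise of 1.47 ± 0.20 (SE, edgeR adjusted p = 0.000545). Loxl2, which crosslinks collagen of basement membranes, was at 61.9 and 30.7 RPKM in αKOγKO, 20.1 and 17.6 RPKM in αKOγWT, 16.2 and 19.1 RPKM in αHetγKO and 16.2 and 16.4 RPKM in αHetγWT hearts, a rise of 1.39 ± 0.27 (SE, edgeR adjusted p = 0.00365), or of 0.77 without αKOγKO replicate 1. In all 3 the αKOγKO libraries were above every other library. Loxl3 was at 12.1 and 6.87 RPKM in αKOγKO, 3.77 and 3.53 RPKM in αKOγWT, 3.41 and 3.62 RPKM in αHetγKO and 2.92 and 3.74 RPKM in αHetγWT hearts and rose by 1.39 ± 0.25 (SE, edgeR adjusted p = 0.00221). Loxl3 overlaps Htra2 on the other strand, which had up to 1839 reads in a library. Serpinh1, which encodes the collagen chaperone HSP47 of the endoplasmic reticulum, was at 348 and 262 RPKM in αKOγKO against 246 and 248 RPKM in αHetγWT hearts. Its log2 fold change of 0.18 ± 0.13 (SE) did not pass (edgeR adjusted p = 0.311). It turned to -0.05 when αKOγKO replicate 1 was left out and reached 0.39 when αKOγKO replicate 2 was (adjusted p = 0.00711).

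**Figure D2:**
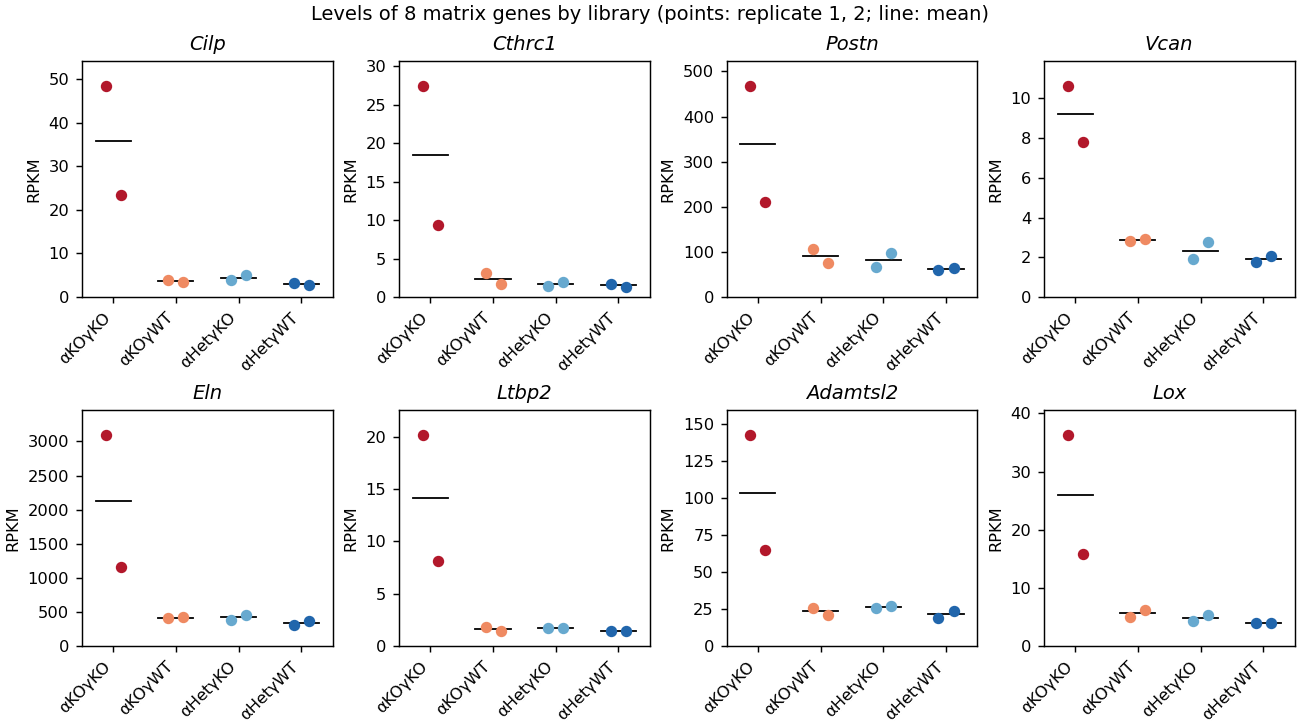
RPKM of 8 matrix genes in every library, with genotypes along the horizontal axis, a linear vertical axis from 0 in each panel, points for replicates 1 and 2 and a line at their mean. In every panel both αKOγKO points lie above the 6 other points, as for Lox at 36.2 and 15.9 RPKM in αKOγKO against 4.02 and 4.04 RPKM in αHetγWT hearts, and replicate 1 is the higher of the 2 αKOγKO points.

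Of the 3 metalloproteinases 2 rose. Mmp2, which encodes a gelatinase, was at 131 and 103 RPKM in αKOγKO, 86.1 and 82.6 RPKM in αKOγWT, 76.8 and 81.8 RPKM in αHetγKO and 67.2 and 71.6 RPKM in αHetγWT hearts and rose by 0.63 ± 0.11 on the log2 scale (SE, edgeR adjusted p = 0.00225). Mmp14, which encodes a membrane-bound metalloproteinase that activates the MMP2 proenzyme, was at 55.1 and 44.4 RPKM in αKOγKO, 32.6 and 29.8 RPKM in αKOγWT, 24.7 and 30.2 RPKM in αHetγKO and 24.1 and 25.9 RPKM in αHetγWT hearts and rose by 0.87 ± 0.13 (SE, edgeR adjusted p = 0.000828). Both genes were higher in each αKOγKO library than in any other. Mmp3, which encodes stromelysin 1, was low throughout, at 1.40 and 1.32 RPKM in αKOγKO, 0.412 and 0.807 RPKM in αKOγWT, 1.09 and 0.833 RPKM in αHetγKO and 0.887 and 0.829 RPKM in αHetγWT hearts. Its log2 fold change of 0.54 ± 0.34 (SE) did not pass (edgeR adjusted p = 0.232).

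The 4 TIMPs went 3 ways. Timp4, the TIMP best known for its expression in the heart, was at 5.53 and 6.25 RPKM in αKOγKO, 25.8 and 45.7 RPKM in αKOγWT, 33.3 and 27.6 RPKM in αHetγKO and 30.7 and 29.9 RPKM in αHetγWT hearts. The αKOγKO libraries did not overlap the others, and Timp4 fell by 2.49 on the log2 scale (SE 0.25, edgeR adjusted p = 0.000104). Timp1, an inhibitor that is induced in many tissues under repair, was at 20.7 and 10.8 RPKM in αKOγKO, 6.31 and 6.73 RPKM in αKOγWT, 6.12 and 5.89 RPKM in αHetγKO and 4.82 and 6.01 RPKM in αHetγWT hearts and rose by 1.42 ± 0.29 (SE, edgeR adjusted p = 0.00443). Timp2, which inhibits MMP2 and also helps MMP14 to activate it, was at 119 and 95.7 RPKM in αKOγKO, 72.8 and 69.5 RPKM in αKOγWT, 69.0 and 72.8 RPKM in αHetγKO and 64.0 and 64.6 RPKM in αHetγWT hearts and rose by 0.62 ± 0.11 (SE, edgeR adjusted p = 0.00173). Timp3, an inhibitor that binds to the matrix, was at 92.8 and 103 RPKM in αKOγKO, 103 and 92.2 RPKM in αKOγWT, 95.0 and 94.7 RPKM in αHetγKO and 89.2 and 87.8 RPKM in αHetγWT hearts. These values overlapped, and its log2 fold change was 0.02 ± 0.07 (SE, edgeR adjusted p = 0.847), which was -0.06 against the mean of the 3 other genotypes.

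Timp4 gave 2.32% and 2.90% of the summed RPKM of the 4 TIMPs in αKOγKO hearts and 12.4% to 21.3% in the other libraries. The sum of the TIMPs over the sum of the 3 metalloproteinases was 1.27 and 1.45 in αKOγKO, 1.75 and 1.89 in αKOγWT, 1.98 and 1.78 in αHetγKO and 2.05 and 1.91 in αHetγWT hearts. The αKOγKO libraries had the lowest ratios, and with 2 libraries per genotype this ratio of RNA levels was not tested. The TIMP sum itself was not lower in αKOγKO hearts, at 238 and 216 RPKM against 188 to 214 RPKM in the other libraries. The metalloproteinase sum was 187 and 149 RPKM in αKOγKO hearts and 92.1 to 119 RPKM in the other libraries. Timp1, Timp3 and Timp4 each overlap a synapsin gene on the other strand, Syn1, Syn3 and Syn2, which had at most 64, 94 and 248 reads in a library. Timp4 itself had 288 and 325 reads in αKOγKO and 1146 to 1986 reads in the other libraries.

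The 250 bases before the start of each TIMP gene are shown because these related genes moved in different directions. They come from RefSeq on GRCm38 at chrX:20869916-20870165 (Timp1, plus strand), chr11:118355412-118355661 (Timp2, minus strand), chr10:86300162-86300411 (Timp3, plus strand) and chr6:115252206-115252455 (Timp4, minus strand), each written 5′ to 3′ along its gene. Capitals mark motifs found on either strand, which were the letters GGGCGG of the GC box, the letters CCAAT of the box bound by the factor NF-Y, and the letters GGAATG of the element bound by TEAD factors.
Timp1: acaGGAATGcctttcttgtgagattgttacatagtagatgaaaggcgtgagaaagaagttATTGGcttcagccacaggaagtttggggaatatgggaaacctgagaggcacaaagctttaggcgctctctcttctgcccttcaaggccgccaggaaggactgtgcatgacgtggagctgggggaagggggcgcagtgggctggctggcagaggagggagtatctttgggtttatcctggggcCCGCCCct
Timp2: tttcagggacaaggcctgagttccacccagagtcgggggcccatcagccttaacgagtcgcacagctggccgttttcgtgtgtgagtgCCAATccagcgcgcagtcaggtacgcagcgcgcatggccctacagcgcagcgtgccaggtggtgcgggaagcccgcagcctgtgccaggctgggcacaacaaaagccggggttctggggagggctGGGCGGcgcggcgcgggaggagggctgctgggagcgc
Timp3: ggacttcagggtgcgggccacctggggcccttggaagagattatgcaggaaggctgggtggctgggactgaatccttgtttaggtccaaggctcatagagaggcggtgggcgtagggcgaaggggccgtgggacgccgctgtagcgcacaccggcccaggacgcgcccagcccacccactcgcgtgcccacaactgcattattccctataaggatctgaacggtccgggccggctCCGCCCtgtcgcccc
Timp4: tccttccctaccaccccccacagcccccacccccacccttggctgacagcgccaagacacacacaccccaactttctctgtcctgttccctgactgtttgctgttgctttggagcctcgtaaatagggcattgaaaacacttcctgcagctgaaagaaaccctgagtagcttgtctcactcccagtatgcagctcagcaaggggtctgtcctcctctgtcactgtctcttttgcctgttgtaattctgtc
The Timp2 and Timp3 windows hold 21 and 18 CpG dinucleotides and are 68.0% and 65.6% G or C, while the Timp4 window holds 2 CpG dinucleotides, is 53.6% G or C and has none of the motifs searched. A GC box is in the windows of Timp1, Timp2 and Timp3, and in 32.7% of 32851 mouse promoter windows of this length.

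Windows were at hand for 26 of the 39 genes, 34 windows in all. The ERR element TCAAGGTCA and its core AAGGTCA were in none of them, against 0.387% and 4.08% of all promoter windows. TGANTCA, the AP-1 element, was in the window of Mmp3 only (6.75% of all windows) and GGAATG in those of Ogn and Timp1 (12.6%). TATAAA, the letters of the TATA box, was in 8 of the 34 windows, from 7 genes (12.4% of all windows). It lay 26 bases before a start of Postn and 30 before a start that lies inside the annotated Adamtsl2 gene, but 126 and 205 bases before the starts of Tnc. CCAAT was in 9 of the 34 windows (33.8% of all windows) and GGGCGG in 18 (32.7%), from 9 and 15 genes. Motifs were searched on both strands, and AAGGTCA is part of TCAAGGTCA. A match describes letters only, and so does its lack.

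**Figure D3:**
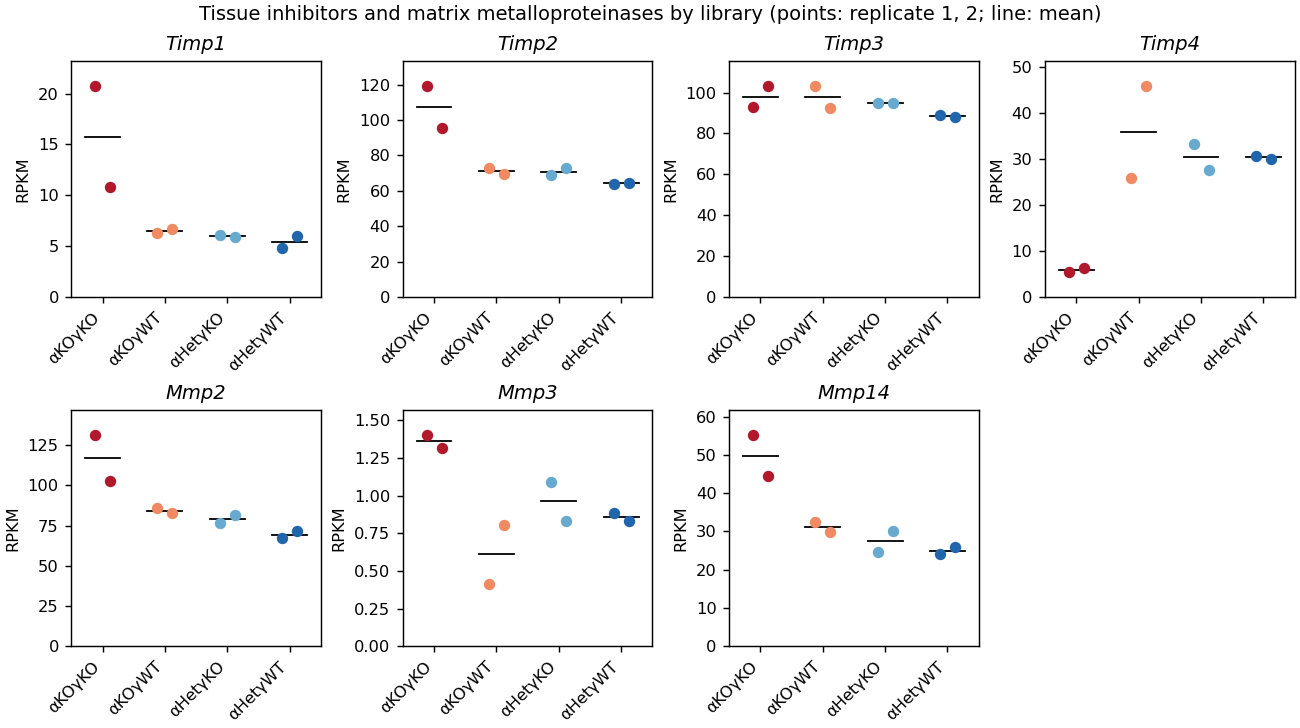
RPKM of the 4 TIMPs and 3 metalloproteinases in every library, with genotypes along the horizontal axis, a linear vertical axis from 0 in each panel, points for replicates 1 and 2 and a line at their mean. Timp4 is lowest in αKOγKO hearts, at 5.53 and 6.25 RPKM against 30.7 and 29.9 RPKM in αHetγWT hearts, Timp3 overlaps between genotypes, and the other 5 genes are highest in αKOγKO hearts.

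Against αHetγKO hearts, which ask what the loss of the last ERRα copy adds when cardiac ERRγ is gone, 28 of the 39 genes were higher in αKOγKO hearts and 2 were lower, with a median log2 fold change of 1.01 (18.7% of all tested genes were higher and 19.6% lower, median 0.00). Without αHetγKO replicate 1 the median of the 39 genes was 0.91, and fewer of them, and of all tested genes, were higher. The largest were Cthrc1 at 3.30, Ltbp2 at 2.93 and Cilp at 2.91, which were 2.31, 2.10 and 2.27 without αKOγKO replicate 1, and Timp4 was at -2.48. Fbln1, which encodes fibulin 1, was the gene that passed against αHetγWT and not here. It was at 52.2 and 48.1 RPKM in αKOγKO, 36.0 and 32.1 RPKM in αKOγWT, 47.4 and 46.7 RPKM in αHetγKO and 35.5 and 37.5 RPKM in αHetγWT hearts, so that αKOγKO and αHetγKO hearts were close, and its log2 fold change here was -0.02, which turned to 0.02 with upper-quartile factors.

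Against αKOγWT hearts, which ask what cardiac ERRγ loss adds when ERRα is gone, 29 genes were higher in αKOγKO hearts and 2 were lower, with a median of 0.98 (16.6% of all tested genes were higher and 18.2% lower, median 0.01). Without αKOγWT replicate 2, 16 were higher, without αKOγWT replicate 1, 20 were higher, and 19 were higher when only these 2 genotypes were fitted. Cilp was at 3.14, Ltbp2 at 3.01 and Cthrc1 at 2.83 on the log2 scale, which were 2.50, 2.18 and 1.84 without αKOγKO replicate 1, and Cthrc1 was at 3.41 without αKOγKO replicate 2. Timp4 was at -2.73. Mmp3 passed here (1.03, edgeR adjusted p = 0.0483), with 96 and 90 reads in αKOγKO against 24 and 46 reads in αKOγWT hearts, but not with DESeq2 (adjusted p = 0.0623), and without 1 library it passed only when αKOγWT replicate 2 was left out (adjusted p = 0.0635 to 0.238 without each other library). Fbn2, which encodes fibrillin 2, did not pass here (0.21, edgeR adjusted p = 0.176). The 3 comparisons share the αKOγKO libraries. In all 3 of them 27 genes were higher and Timp4 and Ltbp1 were lower, and Dcn, Ltbp4, Lum, Ogn, Serpinh1, Spp1 and Timp3 passed in none. The share of all tested genes called in all 3 was not counted, so these counts are not read as particular to the matrix genes.

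Loss of ERRγ alone gave no call. In αHetγKO against αHetγWT hearts, 0 of the 39 genes passed with edgeR and 0 with DESeq2, and 1, Fbln1 (0.35 ± 0.08, SE), had an unadjusted p under 0.05. So had 748 of all 15076 tested genes. Of all tested genes 0.00663% were higher and 0.0% lower with edgeR. The median log2 fold change was 0.15 and 36 of the 39 values were above 0, against 50.4% of all tested genes. When these 2 genotypes alone were fitted, Fbln1 passed (adjusted p = 0.0333).

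Loss of ERRα alone gave 1 call. In αKOγWT against αHetγWT hearts Fbn2 was higher, at 4.54 and 4.06 RPKM in αKOγKO, 3.51 and 3.30 RPKM in αKOγWT, 2.12 and 2.26 RPKM in αHetγKO and 1.96 and 2.34 RPKM in αHetγWT hearts. Both αKO genotypes lay above both αHet genotypes. The log2 fold change of αKOγWT over αHetγWT was 0.67 ± 0.11 (SE, edgeR adjusted p = 0.0297), and that of αKOγKO over αHetγWT was 0.88 ± 0.11. Of all tested genes 0.743% were higher and 0.491% lower in αKOγWT hearts. The Fbn2 call was lost on leaving out any of the 6 libraries of the other genotypes than αKOγKO (adjusted p = 0.0913 to 0.307) and with limma (adjusted p = 0.0917). Vcan, at 0.59, passed with DESeq2 (adjusted p = 0.0349) and not with edgeR. The median was 0.23, and 35 of 39 values were above 0, against 50.6% of all tested genes. An unadjusted p under 0.05 was found for 6 of the 39 genes and for 2181 of all 15076 tested genes. The comparisons of αKOγWT and αHetγKO hearts share the αHetγWT libraries, so their counts of values above 0 are not separate results.

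**Figure D4:**
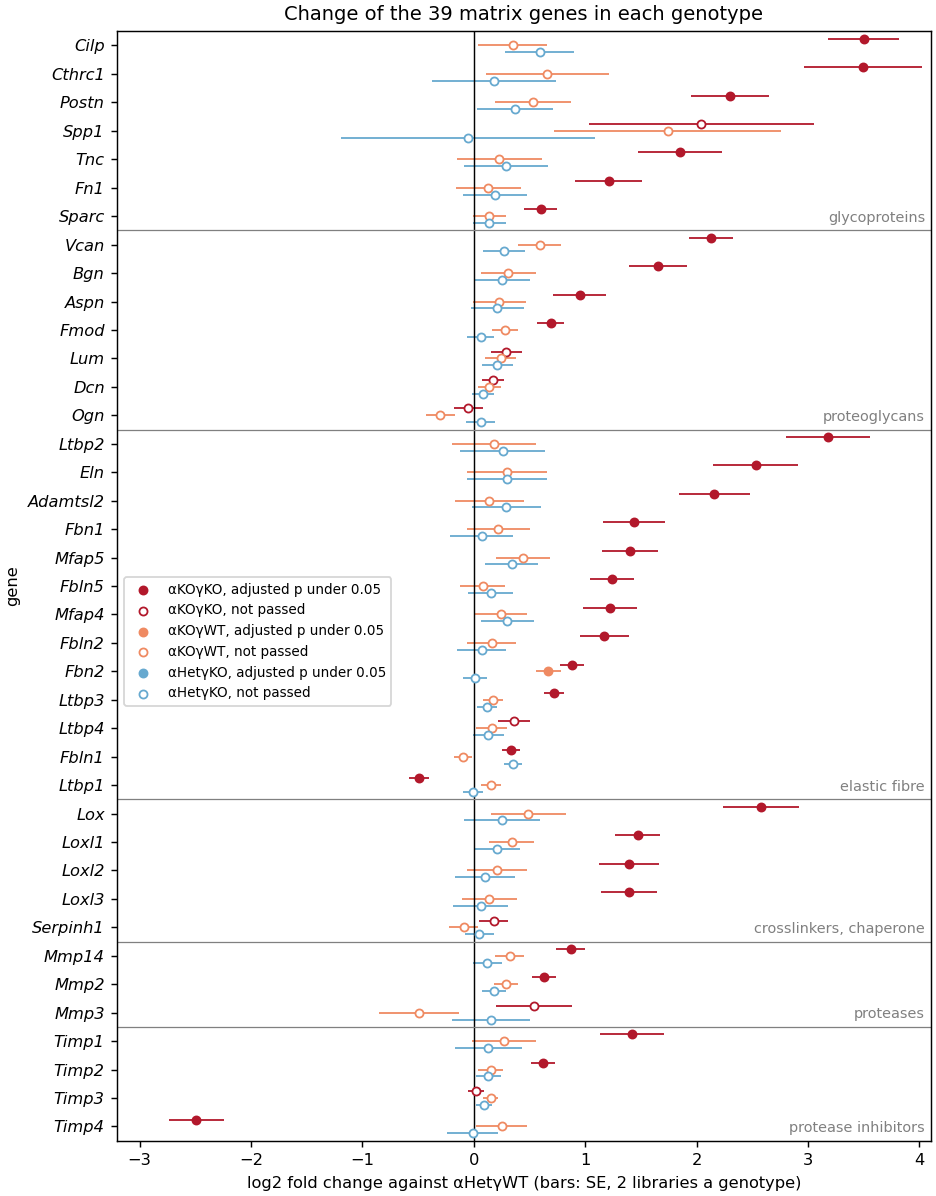
Log2 fold change over αHetγWT of the 39 matrix genes in αKOγKO, αKOγWT and αHetγKO hearts (horizontal axis), with genes on the vertical axis grouped by role, bars for the SE and filled points for an adjusted p under 0.05. αKOγKO points run from -2.49 for Timp4 to 3.50 for Cilp with 31 filled, while Fbn2 at 0.67 is the only filled αKOγWT point and no αHetγKO point is filled.

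The interaction test asks whether cardiac ERRγ loss had another effect in αKO than in αHet hearts. It passed for 12 of the 39 genes, 10 positive and 2 negative (6.77% of all tested genes were positive and 10.7% negative). The effect of ERRγ loss in αKO minus that in αHet hearts was 2.75 ± 0.52 on the log2 scale for Ltbp2 (SE, edgeR adjusted p = 0.00835), 2.64 ± 0.75 for Cthrc1 and 2.56 ± 0.44 for Cilp. Eln, Lox and Adamtsl2 were at 1.93, 1.83 and 1.73, Vcan, Loxl3, Fbln5 and Ltbp3 at 1.28, 1.19, 1.02 and 0.43, and Timp4 and Ltbp1 at -2.73 and -0.63. Postn, at 1.40 ± 0.48, did not pass (edgeR adjusted p = 0.0828). Without αKOγKO replicate 1 the values moved by over 1.5-fold for 6 genes. They became 1.92 for Ltbp2, 1.65 for Cthrc1, 1.91 for Cilp, 1.03 for Eln, 1.10 for Lox and 1.03 for Adamtsl2, and Ltbp3 was at 0.36. A fit without 1 αKOγKO library takes its spread from the other genotypes, so its calls are no check. Most of the 10 positive calls did not pass without any 1 of the 6 libraries other than αKOγKO, a loss not compared here with that over all tested genes.

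The 2 αKOγKO libraries differed in nearly all of these genes. Replicate 1 was above replicate 2 for 36 of the 39, with a median log2 difference in counts scaled between libraries of 0.77, against 0.01 over all tested genes. The difference was largest for Spp1 at 2.04, followed by Cthrc1 at 1.57 and Eln at 1.45, and the 3 genes that went the other way were Timp4, Timp3 and Ltbp1. In the same libraries the median difference was 0.49 over 10 fibroblast markers, 0.76 over 12 macrophage markers and -0.12 over 8 cardiomyocyte markers. It was 0.16 over endothelial, 0.08 over epicardial and 0.01 over smooth muscle and pericyte markers. Over valve and cartilage-like, Schwann cell and lymphocyte markers it was -0.09, -0.31 and -0.77. Without αKOγKO replicate 1 the median log2 fold change of the 39 genes over αHetγWT was 0.69, and without replicate 2 it was 1.58. Either fit leaves 1 αKOγKO library, and its spread comes from the other genotypes. Calls that pass in such a fit are therefore no check of the 31 calls.

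**Figure D5:**
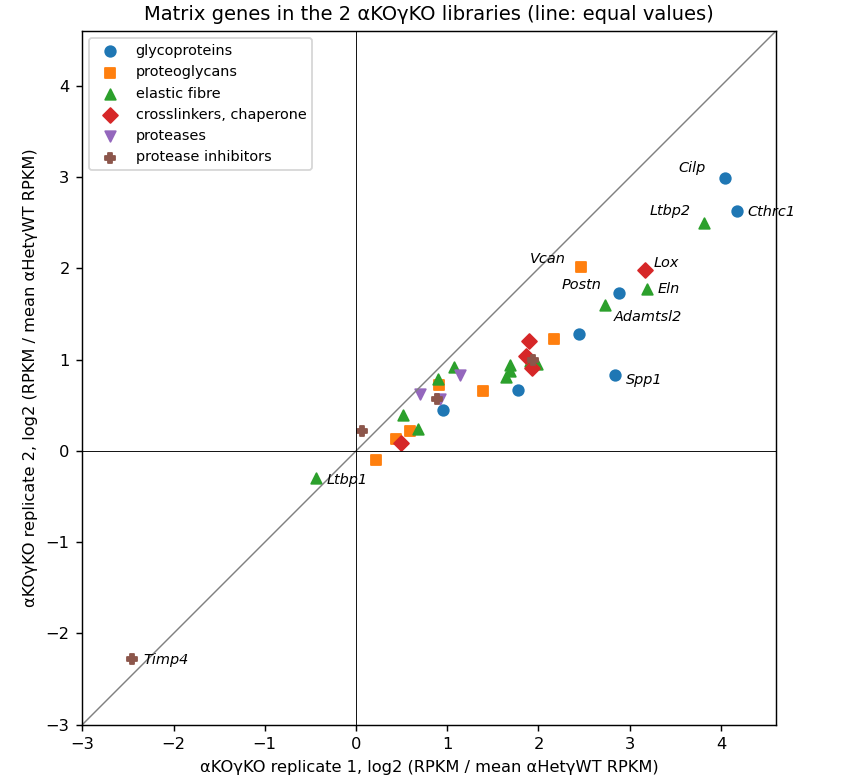
RPKM of the 39 matrix genes in αKOγKO replicate 1 (horizontal axis) against αKOγKO replicate 2 (vertical axis), each as log2 of the ratio to the mean of the αHetγWT libraries, with roles as symbols and a line where both are equal. Of the 39 points 36 lie below the line, Spp1 farthest, at 2.45 RPKM in replicate 1 and 0.611 RPKM in replicate 2.

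Markers of cell types differed by list in αKOγKO against αHetγWT hearts, where 20.7% of all tested genes were higher and 21.5% were lower. Fibroblast markers were higher in αKOγKO than in αHetγWT hearts for 6 of 10 genes and lower for 0, with a sum of 1796 to 2214 RPKM in αKOγKO and 1182 to 1223 RPKM in αHetγWT hearts, and 3 of the 6 that rose were the collagen genes Col1a1, Col1a2 and Col3a1, with Dpt, another of them, also counted among the interstitial glycoproteins. Tcf21, a transcription factor of fibroblasts, rose by 1.12 ± 0.13 on the log2 scale (SE, edgeR adjusted p = 0.000234), while Pdgfra and Ddr2, which encode receptors of fibroblasts, had values of 0.32 and 0.03 that did not pass. Of 7 markers of valve and cartilage-like cells 3 rose, led by Scx, a transcription factor of tendon and valve, at 23.2 and 28.4 RPKM in αKOγKO against 3.20 and 2.94 RPKM in αHetγWT hearts. Of 10 endothelial markers 1 was higher and 6 were lower, of 9 smooth muscle and pericyte markers 3 were higher and 4 were lower, of 12 macrophage markers 2 were higher, and of 8 cardiomyocyte markers 1 was higher and 4 were lower. No marker passed among 6 epicardial, 4 Schwann cell and 5 tested lymphocyte markers. Each fibroblast, endothelial, smooth muscle, macrophage and cardiomyocyte marker had reads in every library, and their part in the changes of the matrix genes was not tested.

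Other matrix genes were counted from lists of the same and related families in αKOγKO against αHetγWT hearts. Among all tested genes 20.7% were higher and 21.5% were lower in this comparison. Of 31 tested other metalloproteases of the MMP, ADAMTS and tolloid families 9 rose and 4 fell. Mmp23 was at 35.4 and 27.8 RPKM in αKOγKO against 9.19 and 10.1 RPKM in αHetγWT hearts (log2 fold change 1.59 ± 0.14, SE, edgeR adjusted p = 3.76e-05), and Adamts7, a protease of cartilage oligomeric matrix protein, was at 2.58 and 3.84 RPKM in αKOγKO against 13.4 and 13.7 RPKM in αHetγWT hearts and fell by 2.21. Adamts9 fell by 0.58. Of 12 other protease inhibitors and regulators 7 rose and 0 fell. Serpine2 (1.57 ± 0.09, SE) and A2m (1.70 ± 0.24) were among those that rose. Of 15 other elastic fiber genes 6 rose and 2 fell, with Loxl4, the remaining lysyl oxidase, at 3.22 and 2.44 RPKM in αKOγKO against 0.517 and 0.367 RPKM in αHetγWT hearts (2.56 ± 0.23, SE, and 1.40 with limma on log2(RPKM + 1)). Mfap2, a microfibril-associated protein, rose by 1.07 ± 0.14, and Hmcn1, which encodes hemicentin 1, by 0.63 ± 0.09.

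Of 17 other proteoglycans 2 rose and 4 fell, with Agrn, which encodes agrin, at 0.78 ± 0.11 (SE) while Podn, a small leucine-rich proteoglycan, fell by 1.08 and Srgn, which encodes serglycin of blood cells, by 0.84. Among 23 other interstitial glycoproteins 13 rose and 6 fell, with Smoc1, a calcium-binding matricellular protein, at 0.94 ± 0.12 (SE) and Vtn, which encodes vitronectin, at 2.62 and 4.10 RPKM in αKOγKO against 19.1 and 19.9 RPKM in αHetγWT hearts, a fall by 2.67. Cilp2, the relative of Cilp, fell by 1.81. Of 12 laminins and nidogens 4 rose and 1 fell. Lama3, a laminin chain, rose by 2.36 ± 0.25 (SE), or by 1.30 with limma on log2(RPKM + 1), and Lamb3 fell by 0.73. Of 22 matrix receptors of the integrin and discoidin families 8 rose and 4 fell, with Itgb5 at 0.85 ± 0.08 (SE) and Itga5, the fibronectin receptor chain, at 0.71 ± 0.09. Itgb6, an integrin chain of epithelia, was at 0.5 and 0.29 RPKM in αKOγKO against 4.1 and 3.34 RPKM in αHetγWT hearts, a log2 fold change of -3.35 that was -1.76 with limma on log2(RPKM + 1). The medians of these lists, in the order given here, were 0.05, 0.65, 0.47, -0.02, 0.36, 0.10 and 0.25, against 0.01 for all tested genes. In the same order 29.0%, 58.3%, 40.0%, 11.8%, 56.5%, 33.3% and 36.4% were higher, against 20.7% of all tested genes. Those lower were 12.9%, 0.0%, 13.3%, 23.5%, 26.1%, 8.33% and 18.2%, against 21.5% of all tested genes.

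Cthrc1, Timp1 and Adamtsl2 also stand in the study's own list of secreted factors, and because that list was drawn from the same hearts, the direction of these genes adds no separate support. Adamtsl2 was matched here by its gene identifier.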

How the data were processed

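RNA-Seq was analysed from 8 mouse heart libraries, 2 per genotype, each from pooled hearts and read as pairs of 100 bases. Per the labels, genome build mm10 was used. The aligner, the counter and whether counting used strand are not given in the sources used here. For each library the authors deposited the count of uniquely assigned reads per gene and an RPKM value, the count divided by gene length and by total counted reads. A deposited coverage score per gene was not used. Genes with no reads in a library are not listed in its table and were set to 0.

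Counts were fitted with edgeR 4.0.16 (R 4.3.3), in 1 quasi-likelihood model over all 8 libraries with a mean per genotype (4 residual degrees of freedom), TMM scaling and filterByExpr (minimum count 10, minimum total 15). P-values were adjusted by Benjamini-Hochberg over 15076 genes, with a threshold of 0.05. SE is the log2 fold change divided by the square root of F. DESeq2 1.42.0, limma 3.58.1 on log2(RPKM + 1) and log2(RPKM + 0.1), other scalings, other filters, a replicate block, fits on fewer genotypes and leaving out each library were tried as alternatives, and the edgeR step was tested on simulated data. Figures were drawn with matplotlib 3.10.9.

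The 39 genes and the other lists were chosen with earlier results of these data known. Values per library are given for the 4 largest changes of each role that passed and did not overlap, all falls, genes called in αKOγWT or αHetγKO hearts, and all TIMPs and metalloproteinases. For other lists the 3 genes of smallest adjusted p with a mean of at least 1 RPKM are named. Further genes are named to account for members that did not pass. Some genes that this rule would name are not reported here.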

Additional observations from a re-analysis of the deposited data

Results flagged for a closer look

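For 12 of the 39 genes the interaction term of the edgeR model passed, which asks whether cardiac ERRγ loss had another effect in αKO than in αHet hearts. It was positive for 10 and negative for 2, against 6.77% and 10.7% of all tested genes. The values below are log2 effects in αKO minus those in αHet hearts. They were 2.75 for Ltbp2 (adjusted p = 0.00835), 2.64 for Cthrc1 (adjusted p = 0.0428), 2.56 for Cilp (adjusted p = 0.00489) and 1.93 for Eln (adjusted p = 0.0343). Lox was at 1.83 (adjusted p = 0.03), Adamtsl2 at 1.73 (adjusted p = 0.0283), Vcan at 1.28 (adjusted p = 0.0137) and Loxl3 at 1.19 (adjusted p = 0.0486). Fbln5 was at 1.02 (adjusted p = 0.0419) and Ltbp3 at 0.43 (adjusted p = 0.0422). Timp4 was at -2.73 (adjusted p = 0.000949) and Ltbp1 at -0.63 (adjusted p = 0.0115). When αKOγKO replicate 1 was left out, Ltbp2 was at 1.92, Cthrc1 at 1.65, Cilp at 1.91, Eln at 1.03, Lox at 1.10 and Adamtsl2 at 1.03, each moved by over 1.5-fold. A fit without 1 αKOγKO library has no spread within αKOγKO, so a call that passes there is no check of it. Cilp, Ltbp2 and Timp4 passed without each of the 6 libraries other than αKOγKO in turn. Cthrc1, Eln, Fbln5, Adamtsl2, Ltbp3, Lox and Loxl3 did not pass without any 1 of these 6.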

How the results depend on the processing

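Of 1470 log2 fold changes of single genes under alternatives, 1366 kept their direction and side of the threshold, 76 lost and 14 gained the call, and 14 changed sign, none of which passed the test in the main analysis. The number of the 39 genes higher in αKOγKO against αHetγKO hearts was 28, and 16 to 32 without 1 library. Against αKOγWT hearts it was 29, 19 with only the genotypes compared, and 16 to 32 without 1 library. In αHetγKO against αHetγWT hearts it was 0, and 1 with only the genotypes compared. In αKOγWT against αHetγWT hearts it was 1, 2 with DESeq2, 0 with limma at both pseudocounts and among genes with a mean of at least 5 RPKM, where Fbn2 was not tested, 3 with only the genotypes compared, and 0 to 3 without 1 library. In the interaction 10 were higher, and 2 to 27 without 1 library, and 2 were lower, and 1 to 2 without 1 library. Signs changed for Ogn (0.06 with limma at both pseudocounts, 0.03 against the mean of the 3 other genotypes, -0.24 to 0.11 without 1 library), Timp3 (-0.06 against the mean of the 3 other genotypes, -0.04 to 0.08 without 1 library), Dcn (-0.01 to 0.33 without 1 library) and Serpinh1 (-0.05 to 0.39 without 1 library), and Fbln1 against αHetγKO hearts (0.02 with upper-quartile factors, 0.09 with limma at both pseudocounts, -0.10 to 0.06 without 1 library). The cause was not tested. The hearts were of littermates, but no source ties a replicate number to a litter, and same-numbered samples had correlations of deviations of -0.15 to 0.07. With the replicate block, counts higher against αHetγWT, αHetγKO and αKOγWT hearts were 29, 28 and 28, where Mmp3 did not pass (adjusted p = 0.061), and 8 in the interaction, where Ltbp3 and Loxl3 did not pass. With 2 libraries per genotype, leaving out 1 leaves a lone library that is assumed to vary like the other genotypes. The low counts of Spp1 and Mmp3 limit their precision.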
